A study of Mus musculus with 18 samples.

Results

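Core lipogenic genes were followed in RNA-seq libraries of mouse liver, brain and testis: 10 genes of the 34932 in the table, taken by symbol through their Ensembl identifiers. They are the regulators Srebf1 (ENSMUSG00000020538) and Mlxipl (ENSMUSG00000005373), the enzymes Acly (ENSMUSG00000020917), Acss2 (ENSMUSG00000027605), Acaca (ENSMUSG00000020532), Acacb (ENSMUSG00000042010), Fasn (ENSMUSG00000025153), Me1 (ENSMUSG00000032418) and Gpam (ENSMUSG00000024978), and the lipogenesis-associated nuclear protein Thrsp (ENSMUSG00000035686). All 10 were found, and all 10 had enough reads to be tested in each tissue. Chronic restraint stress, in which mice are repeatedly held confined, was compared with unstressed control mice, with 3 libraries per treatment in each of 3 tissues and 18 libraries in all. The study's question was how this stress alters the transcriptomes of the 3 tissues. The labels give no genotype, strain, sex, age, length of stress or hour of collection for either group, and no other treatment. For the tissue labelled brain, the extraction protocol speaks of the hippocampus. The sample codes tie a liver, a brain and a testis library to each of 6 animals. One code is inconsistent: the description of the library titled stress brain replicate 3 begins like those of controls, while its data column and its treatment label are those of a stressed animal, as which it was used.

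Fatty acid synthesis turns cytosolic acetyl-CoA into palmitate. In liver, insulin acts through SREBP-1c, a product of Srebf1, and glucose through ChREBP, the product of Mlxipl, and both factors induce the genes of the pathway after feeding. ATP citrate lyase (Acly) and acetyl-CoA synthetase (Acss2) make acetyl-CoA, the acetyl-CoA carboxylases Acaca and Acacb make malonyl-CoA, fatty acid synthase (Fasn) builds the chain with NADPH to which malic enzyme (Me1) contributes, and Gpam starts the assembly of glycerolipids. Srebf1 encodes SREBP-1a and SREBP-1c from different start sites, and the gene counts add both.

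The promoters of Srebf1, Fasn and Mlxipl are shown because Srebf1 and Fasn had the most negative stress differences among the 10 genes in liver and Mlxipl the only positive one. The sequences are from RefSeq on build GRCm38.p6, the 250 bases before an annotated start, read in the direction of the gene. Srebf1 is chr11:60210472-60210721, minus strand, Fasn is chr11:120824548-120824797, minus strand, and Mlxipl is chr5:135089640-135089889, plus strand. Capitals mark CCAAT boxes (CCAAT or its reverse complement ATTGG), the E-box CACGTG, and a spaced direct repeat of the kind bound by LXR, the oxysterol receptor.
Srebf1: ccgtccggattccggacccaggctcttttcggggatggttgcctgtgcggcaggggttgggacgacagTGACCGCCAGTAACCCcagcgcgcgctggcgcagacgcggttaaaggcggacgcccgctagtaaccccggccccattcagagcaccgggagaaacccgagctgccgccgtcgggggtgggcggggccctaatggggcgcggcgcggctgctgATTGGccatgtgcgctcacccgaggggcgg
Fasn: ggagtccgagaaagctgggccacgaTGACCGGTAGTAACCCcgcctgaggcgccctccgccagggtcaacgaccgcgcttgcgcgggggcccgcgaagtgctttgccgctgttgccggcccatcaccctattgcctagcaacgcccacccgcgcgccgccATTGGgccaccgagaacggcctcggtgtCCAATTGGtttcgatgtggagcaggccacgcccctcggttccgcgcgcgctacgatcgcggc
Mlxipl: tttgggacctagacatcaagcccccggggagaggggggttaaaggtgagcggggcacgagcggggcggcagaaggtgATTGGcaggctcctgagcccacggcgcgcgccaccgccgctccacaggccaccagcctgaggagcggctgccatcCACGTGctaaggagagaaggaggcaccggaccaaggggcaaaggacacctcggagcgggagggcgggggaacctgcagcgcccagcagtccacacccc
The LXR-type repeat, GGGTTA and CGGTCA with 4 bases between them on either strand, was found at -182 to -167 from this Srebf1 start and at -225 to -210 from the Fasn start. It was chosen as a search motif after these sequences had been read, so its share of promoters does not measure enrichment. It occurred in 3 of 32851 mouse promoters of the same length (250 bases before to 50 after the start), 0.00913%, and 2 of the 3 were those of Srebf1 and Fasn. A CCAAT box lay in the promoter windows of 9 of the 10 genes, all but Acaca, against 41.1% of genes in the table. Counted by promoter, it lay in 10 of the 15 promoters of these genes, against 37.4% of all promoters. The E-box CACGTG was found in 7.15% of promoters, and among the 10 genes in Mlxipl alone. The sterol regulatory element TCACNCCAC was found in 1.24% of promoters, and among the 10 genes in a second Mlxipl promoter alone. A repeat of AGGTCA with 4 bases between (5 promoters) and a pair of E-boxes with 5 bases between (0 promoters), searched on both strands, were in none of the 15 promoters of these genes. The E-box is part of the E-box pair, and the other motifs do not contain one another. These matches describe the letters only.

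Libraries held 27845840 to 36497096 counts. Marker genes matched the tissue labels: summed hepatocyte markers were 62060 to 88000 CPM (counts scaled to library size) in liver libraries, summed neuron markers 5435 to 6515 CPM in brain, and summed germ cell markers 7423 to 9149 CPM in testis. Adipocyte markers were measured in liver because fat is rich in the same enzymes. Lep was at 0 in all 6 liver libraries, Adipoq did not exceed 0.0628 CPM and Plin1 did not exceed 0.171 CPM. The list of 9 adipocyte genes summed to 3278 to 4530 CPM in control and 2833 to 3241 CPM in stressed liver, nearly all of it Car3. Its other 8 genes summed to 12.25 to 24.1 CPM in control and 13.27 to 18.96 CPM in stressed liver. Of its 5 genes tested, 1 was called lower in stressed liver, beside 0.645% of all genes called lower. That gene was Cfd (adipsin), at 0.645 to 2.48 CPM in control and 0 to 0.0966 CPM under stress, without overlap (edgeR adjusted p = 0.0438). Car3 was at -0.40 ± 0.15 on the log2 scale (SE, adjusted p = 0.217). Of the 5 differences, 4 were below 0 and 1 above, that of Plin4, at 0.57 ± 0.39 (adjusted p = 0.501). The part of adipocyte content in the lipogenic differences was not tested. In bulk tissue, fewer cells of a type and less RNA per cell cannot be told apart.

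In control liver, the lipogenic genes spanned a wide range of abundance, with Thrsp highest and Acaca lowest. Levels are compared between genes in TPM, the authors' transcript abundances, which are scaled by gene length and library size. Thrsp had 2301, 1471 and 736 TPM in control liver replicates 1 to 3, a mean of 1502 ± 783 (SD, n = 3). Fasn followed at 443 ± 138 TPM, and all 3 Thrsp values lay above all 3 Fasn values. Srebf1 (238 ± 59.5 TPM), Mlxipl (194 ± 30.7 TPM) and Acly (169 ± 49.3 TPM) came next, with ranges that overlapped from one to the next. Below them stood Me1 at 76.5 ± 22.6, Acss2 at 47.4 ± 16.8, Gpam at 34.8 ± 9.85, Acacb at 17.6 ± 8.34 and Acaca at 12.6 ± 2.18 TPM (SD, n = 3 each), each overlapping its neighbour. The 2 transcription factors were thus of overlapping abundance in control liver, where the ratio of Srebf1 to Mlxipl in TPM was 1.35, 1.3 and 1.03.

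The order was different in brain and testis. In control brain, Acly (127 ± 13.3 TPM) and Fasn (118 ± 6.8 TPM) led with overlapping ranges, Me1, Gpam, Srebf1 and Thrsp lay between 34.7 and 40.5 TPM on average, and Mlxipl (2.47 ± 0.365 TPM) and Acacb (1.57 ± 0.19 TPM) were the lowest (SD, n = 3 each). Srebf1 exceeded Mlxipl 13.3 to 15.8 times in TPM across the 3 control brain libraries. In control testis, Me1 stood alone at 244, 236 and 239 TPM, with the next gene, Acly, at 27.4 ± 1.64 TPM and Fasn at 24.1 ± 2.2 TPM (SD, n = 3 each). Thrsp was the lowest there, at 0.845 ± 0.289 TPM (SD, n = 3), which rested on 8 to 18 counts per control library. The summed TPM of the 10 genes was 1933 to 3797 in control liver, 418.4 to 439.3 in control brain and 335.5 to 343.8 in control testis.

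**Figure D1:**
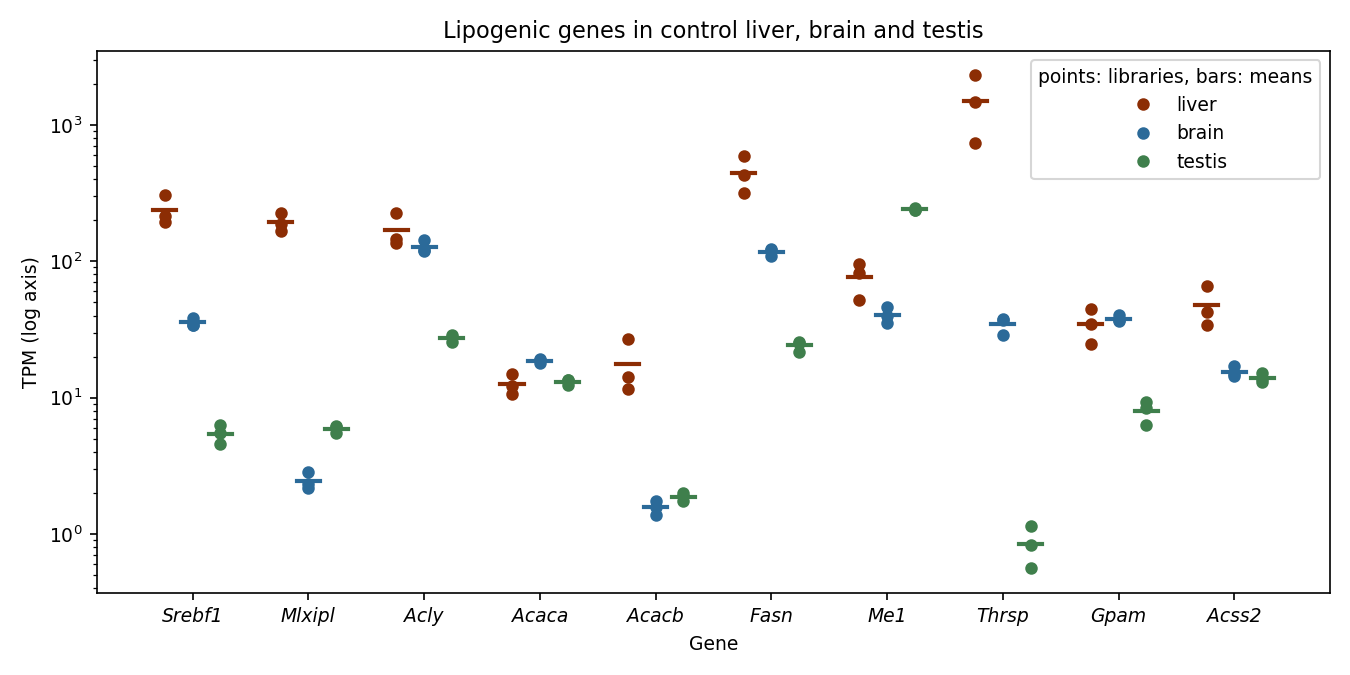
Levels of the 10 lipogenic genes in control liver, brain and testis, in TPM on a log axis, with 1 point per library and bars at the mean of 3 libraries. Me1 is highest in testis at 235.9 to 243.9 TPM, and Thrsp runs from 0.845 TPM on average in testis to 1502 TPM in liver.

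Between control tissues, the lipogenic genes were mostly highest in liver, and Me1 was highest in testis. Against brain, all 10 genes were higher in liver in edgeR (quasi-likelihood test, p adjusted by Benjamini-Hochberg over all genes, threshold 0.05), where 30.0% of 21953 genes tested were called higher. The log2 differences on the count scale ran from 1.28 ± 0.16 (SE) for Acaca to 8.14 ± 0.22 for Mlxipl, with 7.32 ± 0.46 for Thrsp, 5.36 ± 0.35 for Acacb and 4.60 ± 0.24 for Srebf1. Against testis, 9 genes were higher in liver, beside 32.9% of genes called higher, led by Thrsp at 11.92 ± 0.59 and Srebf1 at 6.58 ± 0.26. Me1 was lower in liver than in testis by the same count-based test, at -0.53 ± 0.20 (adjusted p = 0.0297), beside 52.0% of genes called lower, and this call was lost in 5 of the 6 fits that left out 1 library (adjusted p 0.0524 to 0.0773).

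Brain and testis divided the lipogenic genes, and they divided all genes tested as well. Whether the split of the lipogenic genes differed from that of all genes was not tested. Srebf1, Acly, Fasn, Thrsp and Gpam were higher in brain, 5 genes beside 38.7% of all genes called higher, and Mlxipl, Acacb, Me1 and Acss2 were higher in testis, 4 genes beside 45.0% called lower in brain. The call for Acss2 was lost whichever library was left out (adjusted p 0.0602 to 0.102). Acaca had a log2 difference of -0.22 ± 0.15 (brain minus testis, adjusted p = 0.204). The direction for some genes depends on the scale across tissues. With limma on log2(TPM + 1), Acaca was at -0.55 for liver minus brain, at -0.07 for liver minus testis and at 0.48 for brain minus testis, Gpam was at -0.15 for liver minus brain and Acss2 at 0.14 for brain minus testis, all of the opposite sign to the count scale. By that test Acaca passed as lower in liver than in brain (limma adjusted p = 0.00154) and as higher in brain than in testis (0.00307), and not between liver and testis (0.6). The median of all genes moved as well between the scales, from -0.21 to -1.06 for liver minus brain and from -0.20 to 0.34 for brain minus testis. The 3 comparisons share their control libraries.

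Under restraint stress, transcripts of the lipogenic genes were lower in liver for Srebf1 and Me1, and a further 4 genes had stress values below all control values without passing the test. Of the 10 genes, 2 fell at an adjusted p under 0.05 (edgeR), where 0.645% of the 14253 genes tested were called lower and 0.982% higher. At an unadjusted p under 0.05, 7 of the 10 were lower and 0 higher, beside 17.2% of all genes in either direction. The log2 difference was negative for 9 of the 10 genes, with a median of -0.77 against -0.01 over all genes tested. In 6 of the 10 genes all stressed libraries lay below all control libraries, beside 11.1% of all genes. The number of the 10 called depended on the method: DESeq2 called 5 (Srebf1, Acly, Acaca, Me1 and Acss2) beside 2.6% of all genes called lower, edgeR without a low-count filter 6 beside 1.75%, edgeR over all 18 libraries 6 beside 2.18%, and limma on log2(TPM + 1) 1 beside 0.372%, all lower in stress. Leaving out 1 library gave 0 to 3, beside 0.109% to 0.913% of all genes called lower, with 0 without stress replicate 1 or without stress replicate 3.

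Srebf1, the gene of SREBP-1c, had 932, 635 and 545 CPM in control liver and 254, 335 and 268 CPM in stressed liver (CPM here are counts scaled to library size and TMM factors within the tissue). The groups did not overlap, and control replicate 1 was the highest. Srebf1 fell by 1.30 ± 0.21 on the log2 scale (SE), a 2.47-fold lower level (edgeR adjusted p = 0.0235). The call was lost without control replicate 2 (adjusted p = 0.0533), without stress replicate 1 (0.1) or without stress replicate 3 (0.125), and the difference stayed between -1.46 and -1.05 in all 13 fits.

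Mlxipl, the gene of ChREBP, had 658, 467 and 504 CPM in control liver and 666, 618 and 614 CPM under stress. Its groups overlapped, and it was the only one of the 10 genes with a positive difference, 0.22 ± 0.15 (SE, adjusted p = 0.516). In TPM, the ratio of Srebf1 to Mlxipl was 1.03 to 1.35 in control and 0.363, 0.517 and 0.415 in stressed liver. The ratio was lower by 1.51 on the log2 scale without overlap (exact permutation test, two-sided, p = 0.1, the smallest that 3 against 3 allows, and 0.4 after adjustment over 12 ratio tests).

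Among the enzymes, Me1, which makes NADPH from malate, had 199, 104 and 157 CPM in control and 74.2, 70.2 and 79.3 CPM in stressed liver. The 3 stressed libraries lay close together, below every control library. Me1 fell by 1.04 ± 0.21 on the log2 scale (edgeR adjusted p = 0.0476). It lost its call without control replicate 1 (0.0543), control replicate 3 (0.0878), stress replicate 1 (0.134), stress replicate 2 (0.102) or stress replicate 3 (0.167), and with limma on log2(TPM + 1) (0.0802).

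Fasn, the synthase, had 3134, 1621 and 2089 CPM in control and 537, 1451 and 810 CPM in stressed liver. Stress replicate 2 lay just below the lowest control library, and replicates 1 and 3 lay further down. The difference was -1.29 ± 0.35 on the log2 scale, as large as that of Srebf1 but with a wider error, and did not pass the test (adjusted p = 0.101).

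The acetyl-CoA genes came next. Acly had 387, 404 and 594 CPM in control and 178, 313 and 230 CPM in stressed liver. Acss2 had 363, 224 and 171 CPM in control and 116, 148 and 92.9 CPM in stressed liver. Both had non-overlapping groups and differences that missed the threshold, -0.94 ± 0.23 for Acly (adjusted p = 0.0766) and -1.09 ± 0.27 for Acss2 (adjusted p = 0.078).

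The carboxylases differed in overlap. Acaca, whose product feeds synthesis, had 122, 96.1 and 80.3 CPM in control and 58.4, 72.9 and 66.5 CPM under stress, a difference of -0.59 ± 0.17 without overlap (adjusted p = 0.108). Acacb, whose malonyl-CoA restrains fatty acid uptake into mitochondria, had 141, 71.8 and 55.1 CPM in control and 69.7, 77.5 and 63.5 CPM under stress. Its groups overlapped, its difference was -0.35 ± 0.29 (adjusted p = 0.593), and without control replicate 1 it was 0.15. The ratio of Acacb to Acaca in TPM was 1.82, 1.18 and 1.08 in control and 1.88, 1.67 and 1.5 in stressed liver (exact permutation p = 0.3, two-sided, adjusted 0.72).

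Thrsp and Gpam overlapped between the groups. Thrsp had 1587, 984 and 468 CPM in control liver, the widest relative spread of the 10 genes among control libraries (55.3% of the mean), and 542, 813 and 644 CPM under stress. Its difference of -0.60 ± 0.36 (adjusted p = 0.435) was -0.12 without control replicate 1. Gpam had 72.3, 89.6 and 47.6 CPM in control and 32.5, 54.4 and 50.6 CPM under stress, a difference of -0.61 ± 0.25 (adjusted p = 0.249).

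**Figure D2:**
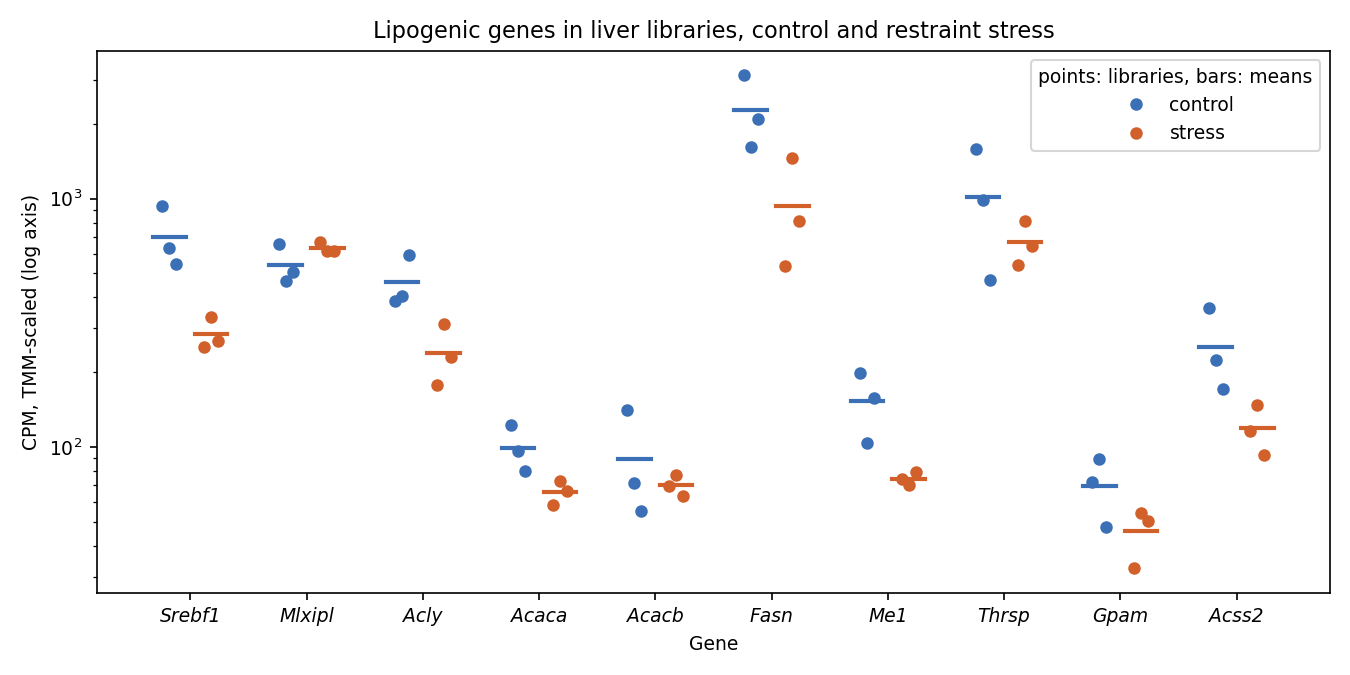
CPM of the 10 lipogenic genes in the 6 liver libraries on a log axis, with 1 point per library and bars at the mean of 3 libraries per treatment. Stressed libraries lie below every control library for Srebf1, Acly, Acaca, Fasn, Me1 and Acss2, and the groups overlap for Mlxipl, Acacb, Thrsp and Gpam.

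The libraries of 1 group differed in how the genes stood together. Relative to the control mean of each gene, the median of the 10 genes was 0.43, -0.14 and -0.31 (log2) in control liver replicates 1 to 3 and -1.03, -0.48 and -0.73 in stress replicates 1 to 3. In each stressed liver library, 9 of the 10 genes lay below the control mean. Control replicate 1 was above the control mean for 9 of the 10 genes, while Acly was highest in control replicate 3. The summed TPM of the 10 genes was 3797, 2477 and 1933 in control and 1384, 2097 and 1655 in stressed liver, so the sums of the groups overlapped, Thrsp being the largest term.

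Some markers of cell types also differed between control and stressed liver. The 6 Kupffer cell and macrophage markers summed to 57.51 to 66.24 CPM in control and 115.2 to 134.5 CPM in stressed liver. Of the 6, 4 rose in edgeR (C1qa, Cd163, Clec4f and Csf1r), beside 0.982% of all genes called higher. Cd163 is outside the 3 most abundant of the list. Adgre1 was at 1.14 to 1.41 CPM in control and 2.5 to 3.9 CPM under stress. Cd68 overlapped, at 5.01 to 7.83 CPM in control and 4.51 to 8.62 CPM under stress. The hepatocyte markers summed to 72670 to 88000 CPM in control and 62060 to 81530 CPM in stressed liver, with overlap. That sum was mostly Alb. Of the 6 hepatocyte genes, 1 fell, beside 0.645% of all genes called lower. It was Fgb, the beta chain of fibrinogen, at 3700 to 4430 CPM in control and 2450 to 2740 CPM in stressed liver (-0.63 ± 0.13 on the log2 scale, edgeR adjusted p = 0.0476). The part of the macrophage and hepatocyte markers in the lipogenic differences was not tested.

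In the brain, none of the 10 genes passed the test. With edgeR, 0 of 10 were called at an adjusted p under 0.05, where 0.00566% of 17668 genes were called, and 0 of 10 reached an unadjusted p under 0.05, beside 7.54% of all genes. DESeq2, beside 0.75% of all genes, and limma on log2(TPM + 1), beside 0.00566%, also called 0. With the replicate number as a block, 0 of the 10 were called, beside 0.125% of all genes (22 in place of 1), and 1, Thrsp, reached an unadjusted p under 0.05, beside 11.6% of all genes. The log2 differences ran from -0.17 ± 0.24 (SE) for Mlxipl to 0.26 ± 0.13 for Thrsp, with a median of 0.02 against -0.00326 over all genes. Srebf1 had 57.6, 57 and 65.6 CPM in control and 57.8, 51.4 and 57.1 CPM in stressed brain, with overlap. Fasn had 323, 355 and 364 CPM in control and 332, 341 and 367 CPM in stressed brain, and its groups overlapped.

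Thrsp and Gpam were the 2 genes whose brain groups did not overlap, in opposite directions, beside 7.21% of genes with all stressed libraries higher and 6.64% with all lower. Thrsp had 14.1, 14.3 and 11.3 CPM in control and 17, 15.9 and 14.7 CPM in stressed brain (adjusted p = 0.697). Gpam had 45.8, 41.7 and 42.5 CPM in control and 40.5, 40.7 and 36.6 CPM in stressed brain (adjusted p = 0.729). Oligodendrocytes make myelin lipid with these enzymes, and their 6 markers summed to 3326 to 5367 CPM in control and 2211 to 5105 CPM in stressed brain. Stress brain replicates 2 and 3 stood apart in choroid plexus markers, genes of the tissue that makes cerebrospinal fluid: the 6 genes summed to 529.9 and 348 CPM there, mostly Ttr, against 6.718 to 14.3 CPM in the other 4 brain libraries. Of the 5 tested, 0 were called in edgeR and all 5 differences were above 0. An unadjusted p under 0.05 was reached by 3 (Ttr, Kl and Aqp1), beside 7.54% of all genes. Without stress replicate 2, Thrsp was at 0.261 and Gpam at -0.169. Without stress replicate 3, Thrsp was at 0.317 and Gpam at -0.093, and in both fits 0 of the 10 genes were called. The 8 adipocyte genes other than Car3 summed to 4.19 to 4.31 CPM in control and 7.42 to 12.77 CPM in stressed brain. Of the 3 adipocyte genes tested, 0 were called in edgeR, with 1 difference above 0 and 2 below. The 1 above 0 was Plin4, at 1.38 ± 0.26 on the log2 scale (SE, adjusted p = 0.387). It alone of the 3 reached an unadjusted p under 0.05, beside 7.54% of all genes. Car3 was at -0.82 ± 0.53 and Retn at -0.43 ± 0.56. Adipoq did not exceed 0.119 CPM in control and was at 0 in all 3 stressed brain libraries. The part of oligodendrocyte, choroid plexus and adipocyte content in the brain values was not tested.

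In the testis, none of the 10 genes passed either. With edgeR, 0 of 10 were called, where 0.0201% of 19915 genes were, and 3 of 10 reached an unadjusted p under 0.05, beside 11.7% of all genes. DESeq2, beside 0.267% of all genes, and limma on log2(TPM + 1), beside 0.01%, also called 0. The 3 genes were Mlxipl at 0.67 ± 0.28, Acss2 at 0.21 ± 0.09 and Gpam at -0.43 ± 0.17 on the log2 scale (SE), with adjusted p of 0.422 to 0.423.

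Mlxipl had 12, 13.3 and 13 CPM in control testis and 13.5, 31.8 and 15.7 CPM under stress, with stress replicate 2 far above the other 5 libraries. Without that library the difference was 0.19. Srebf1 was also highest there, at 21.1 CPM against 10.5 to 14.3 CPM in the other 5 testis libraries. Stress testis replicate 2 stood apart in markers too. Its macrophage marker sum was 38.2 CPM against 16.7 to 20.42 CPM in the other 5 and its Sertoli cell sum 1584 against 909.7 to 1003 CPM. Its sum of 6 Leydig cell markers was 501.9 against 312 to 375.3 CPM, of which Insl3 alone made 289 CPM, against 61.4 to 105 CPM in the other 5. The other 5 Leydig genes summed to 212.6 CPM there, against 283.6 to 313.9 CPM in control and 207.2 and 250.1 CPM in the other stressed libraries. The 8 adipocyte genes other than Car3 summed to 15.1 to 16.92 CPM in control and 16.84 to 22.45 CPM in stressed testis, with overlap. Adipoq was at 10.1 to 10.7 CPM in control and 10.5 to 15 CPM under stress. Of the 6 adipocyte genes tested, 0 were called and 5 differences were above 0. At an unadjusted p under 0.05, 1 was higher and 0 lower, beside 11.7% of all genes in either direction. The part of macrophages, Sertoli cells, Leydig cells and adipocytes in the testis values of the 10 genes was not tested.

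Acss2 had 54.1, 61.8 and 54.8 CPM in control and 66.9, 63.5 and 66.7 CPM in stressed testis, all stressed libraries higher, as were 10.3% of all genes. Acly, Acaca and Gpam had all stressed libraries lower, as did 10.7% of all genes. Gpam had 9.85, 14.4 and 12.8 CPM in control and 8.07, 9.81 and 9.61 CPM in stressed testis. Me1, the most abundant of the 10 genes in testis, had 383, 365 and 363 CPM in control and 356, 280 and 371 CPM under stress, with overlap and a difference of -0.14 ± 0.11 (adjusted p = 0.583). Thrsp had 12, 8 and 18 counts in control and 22, 29 and 16 counts under stress, and its groups overlapped, and its difference of 0.72 ± 0.43 did not pass the test (adjusted p = 0.492).

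**Figure D3:**
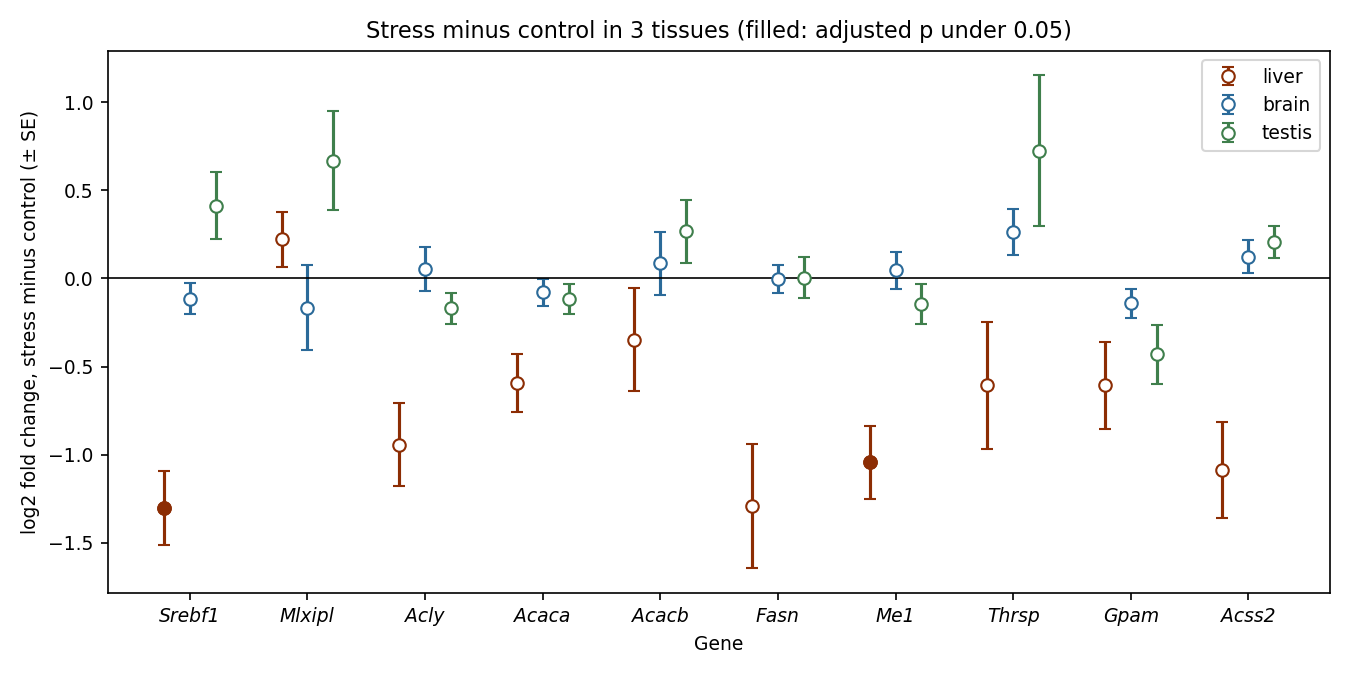
Stress minus control log2 difference of the 10 lipogenic genes in liver, brain and testis, with bars of 1 SE and filled points where the edgeR adjusted p is under 0.05. Srebf1 and Me1 in liver are the 2 filled points, and the brain values lie between -0.17 and 0.26.

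Whether the liver differences exceeded those in the other tissues was tested as an interaction. For liver minus brain, 0 of the 10 genes passed at an adjusted p under 0.05 in edgeR, where 0.195% of 18962 genes did, and 6 of 10 (Srebf1, Acly, Acaca, Fasn, Me1 and Acss2) reached an unadjusted p under 0.05, beside 11.6% of all genes. Srebf1 was nearest, at -1.18 ± 0.26 (SE, adjusted p = 0.0945), followed by Me1 at -1.09 ± 0.27 (adjusted p = 0.115). DESeq2 called 4 of the 10 (Srebf1, Me1, Acly and Acss2), beside 3.32% of all genes, and limma on log2(TPM + 1) called 0, beside 0.253%. With the animal as a block, 2 genes of the whole table were called in place of 37, and none of the 10.

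For liver minus testis, 0 of the 10 passed in edgeR, where 0.154% of 21392 genes did, and the same 6 reached an unadjusted p under 0.05, beside 13.9% of all genes. Srebf1 was at -1.77 ± 0.32 (SE, adjusted p = 0.056), DESeq2 called 2 (Srebf1 and Acss2), beside 4.22% of all genes, and limma on log2(TPM + 1) called Srebf1, beside 0.337%. Acss2 was lower in every stressed liver library and higher in every stressed testis library, and the difference of the 2 effects was -1.35 ± 0.34 (SE, adjusted p = 0.12). With the animal block, 16 genes of the table were called in place of 33, and none of the 10. For brain minus testis, edgeR called 0 of 22391 genes, with 2112 (9.43%) at an unadjusted p under 0.05, DESeq2 called 81 (0.374%) and limma 4 (0.0179%), and none of the 10 was among the calls of any of the 3. Each pair of these interactions shares a tissue's libraries.

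**Figure D4:**
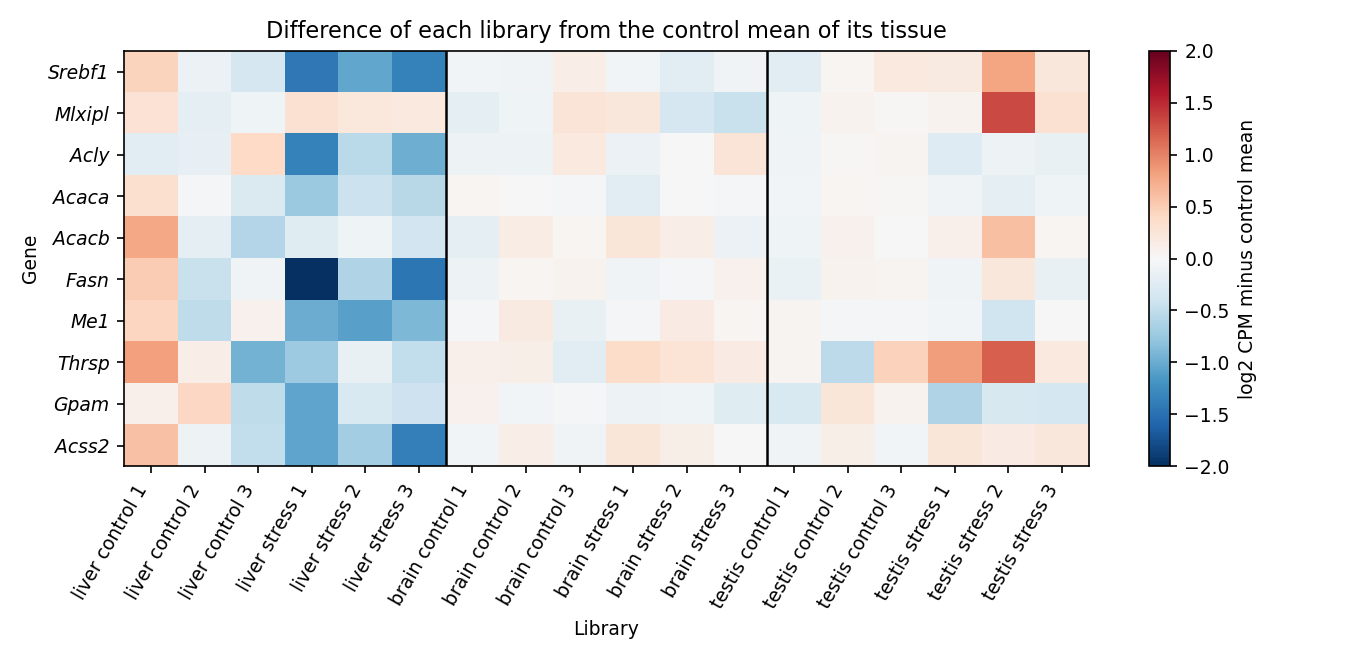
Difference of each of the 18 libraries from the control mean of its tissue for the 10 lipogenic genes, as log2 CPM, with colours that end at 2 in either direction and black lines between tissues. All stressed liver libraries are blue for every gene but Mlxipl, and stress testis replicate 2 is red for Mlxipl, Srebf1 and Thrsp.

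Other genes of the pathway were taken from 5 lists. Of 16 genes that control SREBP-1c and ChREBP, 0 passed in liver with edgeR (4 at an unadjusted p under 0.05, beside 17.2% of all genes), and the median difference was 0.02. Insig1, which retains SREBP in the endoplasmic reticulum and is itself an SREBP target, had 1000, 1450 and 1247 CPM in control and 385, 968 and 311 CPM in stressed liver, without overlap (log2 difference -1.15 ± 0.38, adjusted p = 0.157). Irs2, an adaptor of the insulin receptor, was at -1.14 ± 0.24 (adjusted p = 0.0511). Srebf2, the regulator of cholesterol synthesis, was at -0.43 ± 0.12 (adjusted p = 0.115), and Rxra, a partner of LXR, at 0.32 ± 0.12 (adjusted p = 0.203).

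Downstream of synthesis, 2 of 14 genes for desaturation, elongation and glycerolipid assembly fell in liver and 0 rose. Of all genes, 0.645% were called lower and 0.982% higher. In the list, 12 of 14 differences were negative, with a median of -0.18. Scd1, the stearoyl-CoA desaturase of liver, had 8453, 5415 and 6703 CPM in control and 1562, 1747 and 999.7 CPM under stress, and fell by 2.25 ± 0.24 on the log2 scale (edgeR adjusted p = 0.00461). Pnpla3, a lipid droplet protein induced by SREBP-1c, had 13.3, 4.34 and 5.25 CPM in control and 0.833, 0.725 and 0.589 CPM under stress, and fell by 3.41 ± 0.46 (adjusted p = 0.0119). Pnpla3 lost its call without stress replicate 3 (0.0718) and with limma on log2(TPM + 1) (0.0502). Elovl5, an elongase, was at -1.36 ± 0.28 (adjusted p = 0.0509) and Lpin1, a phosphatidate phosphatase, at 1.35 ± 0.33 (adjusted p = 0.0716).

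Of 14 genes for acetyl-CoA, malonyl-CoA and NADPH supply, 12 were tested in liver, 0 passed with edgeR (2 at an unadjusted p under 0.05, beside 17.2% of all genes), and the median was -0.21. Slc25a10, the mitochondrial dicarboxylate carrier, was at -0.65 ± 0.14 (adjusted p = 0.0511), and Mid1ip1, which promotes acetyl-CoA carboxylase polymerization and is related to Thrsp, at -1.03 ± 0.30 (adjusted p = 0.117). Slc13a5, a citrate importer, at -1.31 ± 0.66 and Pgd, an NADPH-producing enzyme, at -0.43 ± 0.20 had adjusted p of 0.349 and 0.32. Slc13a5 was low in liver, at 1.11, 0.565 and 1.37 CPM in control and 0.513, 0.635 and 0.0654 CPM under stress, with overlap.

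Of 10 ChREBP targets in sugar handling, 0 passed with edgeR, 7 were lower at an unadjusted p under 0.05, beside 17.2% of all genes in either direction, and the median was -0.50. G6pc, glucose-6-phosphatase, had 868, 493 and 632 CPM in control and 298, 326 and 388 CPM under stress (-0.98 ± 0.21, adjusted p = 0.0519). Khk, ketohexokinase, was at -0.51 ± 0.15 (adjusted p = 0.128) and Slc2a2, the glucose transporter of hepatocytes, at -0.49 ± 0.14 (adjusted p = 0.116). Fgf21, a hormone secreted by liver, was at -3.63 ± 0.98 (adjusted p = 0.0993). Fgf21 had 3.44, 0.446 and 11.7 CPM in control and 0.32, 0.725 and 0.196 CPM in stressed liver, with overlap.

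Of 13 genes of the fasting response, 2 rose and 0 fell in liver, with a median of -0.11. Of all genes, 0.982% were called higher and 0.645% lower. Angptl4, an inhibitor of lipoprotein lipase, had 28.4, 19.9 and 25.3 CPM in control and 150, 93 and 135 CPM under stress, and rose by 2.36 ± 0.20 on the log2 scale (edgeR adjusted p = 0.00207). Pck1, the phosphoenolpyruvate carboxykinase of gluconeogenesis, had 1606, 1415 and 1943 CPM in control and 3914, 4112 and 3302 CPM under stress, and rose by 1.19 ± 0.16 (adjusted p = 0.0119). Other genes of this list were on the other side: Pdk4, a kinase that inhibits pyruvate dehydrogenase, was at -1.89 ± 0.48 (adjusted p = 0.08) and Igfbp1 at -1.91 ± 0.59 (adjusted p = 0.143). In brain and in testis, 0 genes of the 5 lists passed with edgeR.

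**Figure D5:**
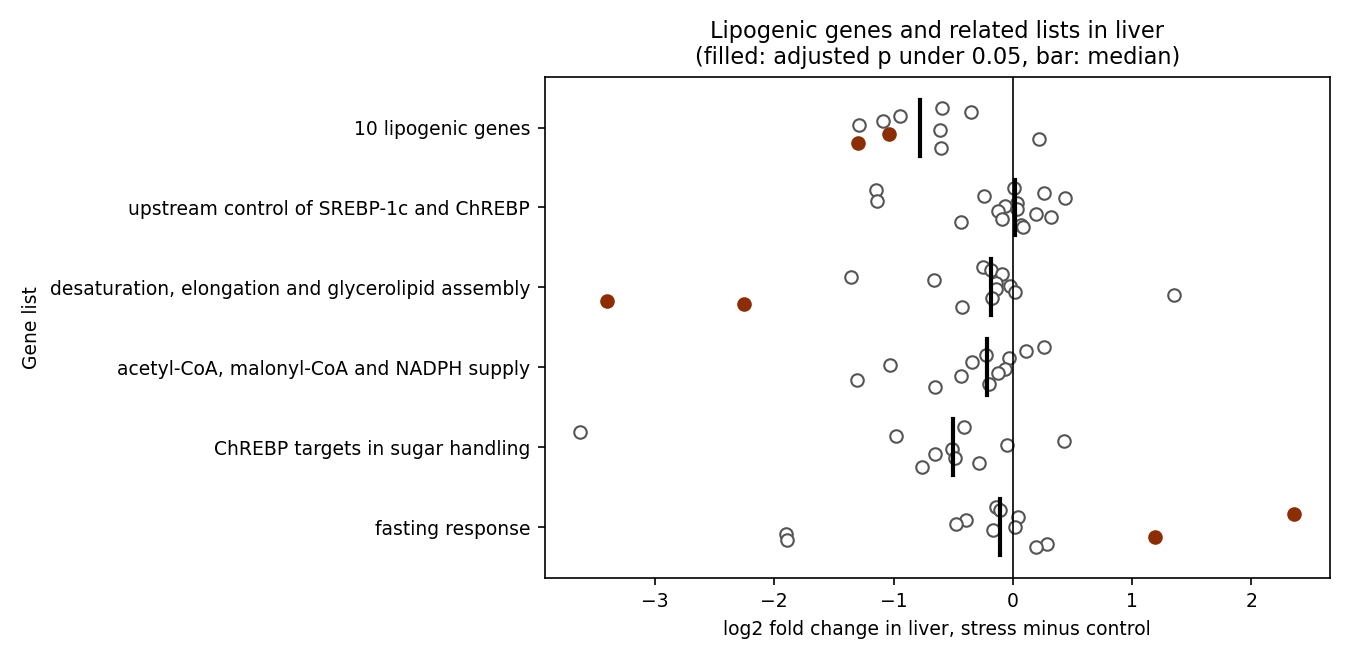
Stress minus control log2 difference in liver for the 10 lipogenic genes and 5 related lists, with 1 point per tested gene, filled where the edgeR adjusted p is under 0.05, and a bar at the median of each list. The medians are -0.77 for the lipogenic genes, 0.02, -0.18, -0.21, -0.50 and -0.11 for the lists from top to bottom.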

How the data were processed

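Libraries were built with a kit that keeps the RNA strand, per the labels' protocols, and build mm39 is named in the submitters' processing notes. Which aligner, counter, strand setting and gene annotation were used is not given in the sources used here. One table was deposited by the authors, with raw counts, TPM and FPKM for 34932 genes in 18 libraries. The deposited counts are unnormalized whole numbers. The authors' TPM sum to 1000000 per library, and the authors' FPKM were read only to check that the values rest on the same counts and gene lengths. Symbols came by gene identifier from GENCODE M21 (GRCm38), which named 34362 genes and left 570 unnamed. As the builds differ, the only positions given are those of RefSeq promoters, with their own build. Depth was 27845840 to 36497096 counts, and replicates differed by more than counting error (chi-square per degree of freedom 4.64 to 115). The series' design text calls the replicates biological.

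Stress was compared with control in each tissue (6 libraries) with edgeR 4.0.16 (R 4.3.3), using TMM factors, the default low-count filter, the quasi-likelihood test and Benjamini-Hochberg adjustment over all genes tested, at 0.05. Interactions used the 12 libraries of a tissue pair, and control tissues were compared in 1 fit of 9 libraries. SE is the log2 difference divided by the square root of F. Marker sums used CPM by library size alone. The 12 ratio tests were exact permutation tests. The edgeR step was tested on simulated counts. Alternatives were DESeq2 1.42.0, DESeq2 size factors, no filter, a replicate block, limma 3.58.1 on log2(TPM + 1), leaving out each library, and all 18 libraries in 1 fit. Same-numbered control and stress libraries deviated together in brain (correlations 0.348, 0.248 and 0.54). Control and stress libraries are of different animals and no label pairs them, so the main fits had no replicate block. Sample codes pair the tissues of an animal, so the block in the interactions is the animal. The main interaction fits had no block and treated the 12 libraries as independent. Deviations of 2 tissues of the same animal correlated at -0.054 to 0.178.

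The 10 genes and the lists were chosen with earlier results of these data known. Named genes were the 10 genes, up to 4 genes per pathway list with the smallest p in liver, and the 3 most abundant genes of a marker list. Markers named outside that rule (Lep, Adipoq, Plin1, Cfd, Fgb, Aqp1, Adgre1, Cd68 and Cd163) were chosen after their values were seen. Plin4 and Retn were also named after their values were seen.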

Additional observations from a re-analysis of the deposited data

Results flagged for a closer look

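Pnpla3 and Scd1, genes of fatty acid handling downstream of synthesis, had stress effects in liver that differed from those in brain or testis by the interaction test of edgeR. For Scd1 the log2 difference of effects was -2.40 ± 0.32 (SE) for liver minus brain (adjusted p = 0.0156) and -2.13 ± 0.34 for liver minus testis (adjusted p = 0.0209). For Pnpla3 it was -3.16 ± 0.56 for liver minus brain (adjusted p = 0.0466). With the animal as a block, the adjusted p was 0.0851 for Scd1 against brain, 0.0631 for Scd1 against testis and 0.0851 for Pnpla3, so all 3 calls were lost. Scd1 against brain also lost its call without control brain replicate 1 (0.0526) or 2 (0.0543), and against testis without control testis replicate 2 (0.0916) or 3 (0.099) or stress testis replicate 3 (0.0542). Pnpla3 lost its call with limma on log2(TPM + 1) (0.19) and in 9 of the 12 fits that left out 1 library, and kept it without control liver replicate 1, 2 or 3.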

How the results depend on the processing

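The call counts over all genes moved with the method. For stress in liver, 232 genes by edgeR became 819 with DESeq2, 858 without the low-count filter, 475 with the replicate block, 143 with limma on log2(TPM + 1) and 892 (388 higher, 504 lower) with all 18 libraries. Of the 10 lipogenic genes, 2 became 5, 6, 4, 1 and 6 in the same order. For stress in brain, 1 became 120 with DESeq2, 2 without the filter, 22 with the replicate block and 3 with all 18 libraries. For testis, 4 became 60 with DESeq2, 25 without the filter and 2 with limma. For liver minus brain, 37 became 542 (DESeq2), 123 (no filter) and 2 (replicate block), and 0 lipogenic genes became 4 with DESeq2 and 2 without the filter. For liver minus testis, 33 became 718 (DESeq2), 39 (DESeq2 size factors), 134 (no filter), 16 (replicate block) and 72 (limma). There, 0 lipogenic genes became 2 with DESeq2 and 1 each with DESeq2 size factors, no filter and limma. For brain minus testis, 0 became 81 (DESeq2), 8 (no filter) and 4 (limma). The causes were not tested.

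Leaving out 1 library gave 31 to 291 genes for stress in liver (0 to 3 lipogenic genes), 0 to 1 in brain, 0 to 21 in testis (21 without stress testis replicate 2), 5 to 112 for liver minus brain (0 to 1 lipogenic genes), 0 to 129 for liver minus testis (0 to 2) and 0 to 3 for brain minus testis. Each such fit left 2 libraries in 1 group.

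In liver, same-numbered libraries correlated at 0.237, 0.054 and 0.022 in their deviations, and in testis at 0.108, 0.101 and -0.127. No label pairs control with stress libraries in any tissue, so the block of the stress comparisons rests on the number alone. With the replicate block, Srebf1, Me1, Acly and Acss2 were called in liver. Over all 14253 genes tested, 214 were called lower with the block and 92 without it. In brain the block changed no call among the 10 genes.

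Some differences changed sign between fits. Without 1 library, Acacb ranged from -0.601 to 0.146 in liver and from -0.756 to 0.029 for liver minus brain, both highest without control liver replicate 1, and Mlxipl from -0.671 to 0.012 for liver minus testis, highest without stress testis replicate 2. In brain without 1 library, Acacb ranged from -0.00293 to 0.181, Acly from -0.054 to 0.162, Me1 from -0.026 to 0.138 (-0.00904 without stress brain replicate 2) and Fasn from -0.052 to 0.034 (0.014, 0.034, 0.029 and 0.01 where it was positive), with 0.016 for Fasn by limma. In testis, Fasn was at -0.0087 (DESeq2), -0.0074 (DESeq2 size factors), -0.087 (limma), -0.00364 (no filter), -0.000348 (replicate block), -0.06 without control replicate 1, and from -0.119 (without stress replicate 2) to 0.078 in the fits without 1 library. For brain minus testis, Fasn was at 0.038 (DESeq2), 0.034 (DESeq2 size factors), 0.104 (limma), and -0.083 to 0.108 without 1 library (above 0 at 0.00418, 0.022, 0.052, 0.029 and 0.108), Acaca at -0.011 to 0.101 (also -0.00855), Acacb at -0.292 to 0.014 and Acss2 at 0.021 (limma). Between control tissues, not all differences that changed sign were near 0 in edgeR. There, Acaca was at -0.218 (brain minus testis), 1.285 (liver minus brain) and 1.067 (liver minus testis). Acss2 was at -0.58 (brain minus testis) and Gpam at 1.741 (liver minus brain). With limma on log2(TPM + 1), Acaca was at 0.482, -0.551 and -0.069 in the same order, Acss2 at 0.141 and Gpam at -0.152. That scale also moved the median of all genes for liver minus testis under stress from -0.06 to 0.07. Mlxipl, Acacb, Thrsp and Gpam in liver passed in none of 13 fits.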
